A study of Canis lupus familiaris with 77 samples.

Results

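The miR-424, miR-450, miR-503 and miR-542 cluster was described here by its 5 mature miRNAs among the 650 miRNAs detected in the series. The members are hsa-miR-424-5p, cfa-miR-450a, cfa-miR-450b, cfa-miR-503 and cfa-miR-542, chosen by name, and a miRNA without a read in a sample was counted as 0. The cfa-miR-542 row is the 3p arm of its precursor by the human name it carries, and the cfa-miR-424 row is the 3p arm opposite to hsa-miR-424-5p. The prefixes cfa and hsa mean that the mature sequence was annotated in dog or taken from human.

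Small RNA was sequenced in 76 libraries from 16 tissues of untreated male Marshall Beagle dogs, which were 10 months old and had been perfused with phosphate buffered saline before the organs were taken. The study took all tissues from 5 dogs, and since the labels tie no sample to a dog, the tests treat samples of different tissues as independent. There were 14 tissues with 5 samples each, colon with 4 and sciatic nerve with 2. Plasma was collected in K2EDTA, and bone marrow RNA was isolated with another reagent (TriReagent LS) than that of the solid tissues. The study describes the isolation from plasma separately as well. Its supplement reports low RNA integrity in plasma, bone marrow and a subset of kidney samples, and fewer mapped reads in bone marrow. Tissue, isolation method and RNA integrity therefore cannot be told apart for bone marrow and plasma. The study's methods give sciatic nerve both as 1 pool split into replicates and as individual samples with a pool, so its 2 samples may not be separate dogs.

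Levels are given as RPM, the reads of a miRNA scaled to the same total of reads on miRNAs in every library. The libraries held 157871 to 7896424 reads (median 1364823), and 3 reads, taken as the floor of detection, were worth between 0.380 and 19.0 RPM. The bone marrow libraries held 162310 to 239023 reads and the testis libraries 219585 to 2027090. Testis replicates 2 and 3 and skeletal muscle replicate 4 were low in the markers of their own tissue. Thymus replicates 2, 3 and 5 were low in the leukocyte marker miR-142, which reached 17682 RPM in bone marrow replicate 1. Duodenum replicates 3, 4 and 5 were low in miR-194, added after seeing the data, with its highest tissue median in jejunum (28457 RPM, duodenum 4054 RPM). Neither miR-142 nor miR-194 marks thymus or duodenum alone. The number of calls that change without these 9 libraries is given, with values for the tissues described in detail. The marker miRNAs of brain, heart, skeletal muscle, liver, pancreas and testis each had their highest tissue median in the tissue so labelled. In whole tissue, fewer cells of a type and less RNA per cell cannot be told apart.

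The 5 miRNAs are processed from neighbouring hairpins of 1 locus on the X chromosome. In the RefSeq gene table of the dog assembly UU_Cfam_GSD_1.0, their genes followed each other in the order MIR450B, MIR450A, MIR542, MIR503 and MIR424, between HPRT1, an enzyme of purine salvage, and PLAC1, a gene known from placenta. miR-424 and miR-503 are known as brakes on cell division and belong to the extended miR-15 and miR-16 family, whose members share a seed, the stretch of the miRNA that pairs with target messages. miR-424 is also known from the maturation of monocytes in blood formation and from muscle differentiation. miR-450a, miR-450b and miR-542 have other seeds and therefore other targets.

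Testis and bone marrow held the highest levels of the cluster. The summed level of the 5 miRNAs was 1131 ± 630 RPM in testis and 905 ± 277 RPM in bone marrow (mean ± SD, n = 5 each), against 271 ± 111 RPM in lung, the next tissue by median, and 9.27 ± 1.46 RPM in sciatic nerve (n = 2), the last. The ranges of testis and bone marrow overlapped. Every bone marrow sample lay above every lung sample, and all other neighbours in the order of the 16 tissues overlapped. The median summed levels ran from testis and bone marrow through lung, liver, jejunum, kidney, pancreas, ileum, brain, colon, plasma, heart, skeletal muscle, thymus and duodenum to sciatic nerve.

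**Figure D1:**
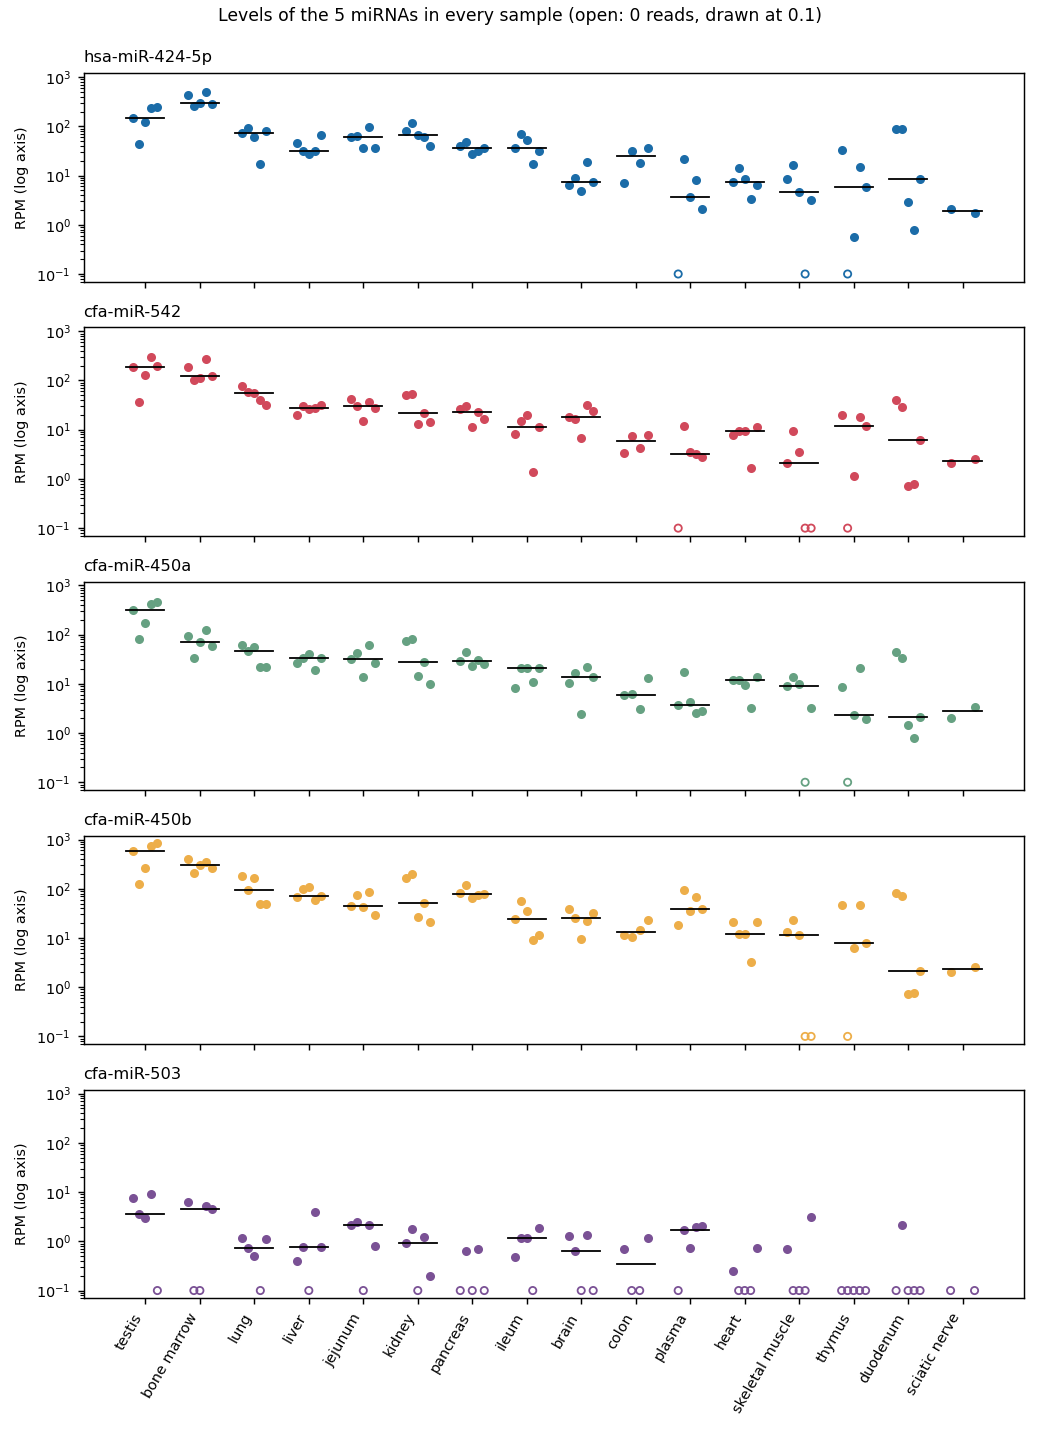
RPM of each of the 5 miRNAs (one panel each, logarithmic axis) in every sample of the 16 tissues, ordered by the median summed level, with the tissue median as a line and samples without a read as open points drawn at 0.1. Testis and bone marrow stand highest for the 4 miRNAs above the floor, and cfa-miR-503 stays below 10 RPM everywhere.

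hsa-miR-424-5p was highest in bone marrow. Its level was 444, 264, 303, 508 and 285 RPM in bone marrow replicates 1 to 5, which rests on 56 to 96 reads per library. In testis it was 147, 43.8, 125, 241 and 244 RPM. All 5 bone marrow samples stood above every other sample of the series, and testis came next without a gap to lung.

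A miRNA was called tissue enriched (TE), after the study's definition, where its mean in a tissue was over 5 times that of the remaining samples. The Benjamini-Hochberg adjusted p of a two-sided exact rank-sum test also had to be under 0.05. No filter on level was applied, as the definition names none. In testis 53 of 650 miRNAs were TE in this way, more than the study lists there. hsa-miR-424-5p was TE in bone marrow at 8.88 times the mean of all other samples (361 ± 108 RPM, n = 5, adjusted exact p = 7.8e-06), where 3.08% of all miRNAs were TE. In testis its ratio was 2.93 (160 ± 84.5 RPM), which is below the threshold.

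cfa-miR-450a, which lies beside cfa-miR-450b in the locus, was highest in testis. Testis replicates 1 to 5 held 309, 80.2, 169, 410 and 460 RPM. Bone marrow replicates 1 to 5 held 92.4, 33.5, 70.3, 127 and 59.8 RPM. The lowest testis sample, replicate 2, fell inside the bone marrow range and the other 4 lay above it. The testis mean was 11.96 times that of the remaining samples (286 ± 160 RPM, n = 5, adjusted exact p = 2.2e-05), the largest ratio of the 5 miRNAs in any tissue, and 8.15% of all miRNAs were TE in testis.

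cfa-miR-450b reached 592, 124, 269, 724 and 843 RPM in testis replicates 1 to 5, and 400, 213, 303, 354 and 262 RPM in bone marrow. Testis was TE with a ratio of 7.85 (510 ± 304 RPM, n = 5, adjusted exact p = 0.000447). Bone marrow, at 307 ± 73.8 RPM and a ratio of 3.86, was not.

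cfa-miR-542 was TE in both tissues. Testis replicates 1 to 5 held 192, 36.5, 130, 296 and 195 RPM, a ratio of 6.07 (170 ± 95.5 RPM, n = 5, adjusted exact p = 0.00119). Bone marrow held 185, 100, 113, 270 and 124 RPM, a ratio of 5.51 (159 ± 70.1 RPM, n = 5, adjusted exact p = 0.000824). The samples of the 2 tissues overlapped, and the ratio in bone marrow fell to 4.54 without bone marrow replicate 4 and that in testis to 4.94 without testis replicate 4.

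cfa-miR-503, a member of the miR-16 family by its seed, was close to the floor of detection. It had 106 reads in all 76 libraries, no read in 33 of them and at most 3 reads in 68. Its highest level was 9.11 RPM, in testis replicate 4, which rests on 2 reads. It met the TE threshold in testis (4.65 ± 3.66 RPM, n = 5, ratio 5.35, adjusted exact p = 0.0414), and the call was lost without testis replicate 1, 2, 3 or 4 (adjusted exact p = 0.192 to 0.235). No order of tissues is read from it.

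In all, 6 of the 80 member and tissue pairs were TE, against 3.62% of all miRNA and tissue pairs. They were the testis pairs of cfa-miR-450a, cfa-miR-450b, cfa-miR-542 and cfa-miR-503 and the bone marrow pairs of hsa-miR-424-5p and cfa-miR-542. Without the 9 libraries named above 5 passed both thresholds, with the ratio of cfa-miR-450a in testis at 14.9 and that of cfa-miR-450b at 10.01 (n = 3 each).

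The testis libraries differed in their markers. The summed level of miR-202, miR-34c and miR-449a, which mark testis in this series, was 55737, 103126 and 89513 RPM in replicates 1, 4 and 5, but 5204 RPM in replicate 2 and 609 RPM in replicate 3. The 4 stromal and smooth muscle markers summed to 293592 and 242451 RPM in replicates 2 and 3, against 79760 to 97859 RPM in the other 3. The cluster summed to 1248, 1680 and 1741 RPM in replicates 1, 4 and 5, to 288 RPM in replicate 2 and to 696 RPM in replicate 3. The 2 libraries low in testis markers held the lowest levels of the cluster in testis, and the part of tissue make-up in this was not tested.

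The neighbouring X-linked cluster offered a comparison within the same libraries. miR-363 was at 3992, 6134 and 6676 RPM in testis replicates 1, 4 and 5, at 346 RPM in replicate 2 and at 17.3 RPM in replicate 3. cfa-miR-106a, from the same group of hairpins, was at 181, 342 and 432 RPM in those 3 replicates, at 25.5 RPM in replicate 2 and at 1.48 RPM in replicate 3. In testis replicate 3 the miR-424 and miR-450 cluster was at 696 RPM where miR-363 was at its lowest testis value.

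Counts were also tested in 1 model over all tissues, edgeR's quasi-likelihood test with TMM scaling, which gives a log2 fold change for each tissue against the mean of the other 15. Here each tissue has the same weight and values are averaged on a log scale, so a tissue can be called higher here while its mean RPM is at or below that of all remaining samples, in which testis and bone marrow weigh heavily. Of 80 member and tissue pairs, 26 were higher and 16 lower at an adjusted p under 0.05, against 24.6% higher and 14.3% lower among all 7680 tested pairs. The higher pairs include cfa-miR-503, close to the floor of detection, in testis, kidney, jejunum and plasma. Without the 9 libraries named above 3 pairs became higher (in duodenum, lung and plasma), 9 became lower and 3 calls were lost.

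All 5 miRNAs were higher in testis, where 34% of tested miRNAs were. The log2 fold changes were 3.68 ± 0.29 for cfa-miR-450a (SE, adjusted p = 8.65e-18), 3.37 ± 0.34 for cfa-miR-450b (adjusted p = 1.44e-13), 3.12 ± 0.30 for cfa-miR-542 (adjusted p = 1.06e-14) and 2.31 ± 0.34 for hsa-miR-424-5p (adjusted p = 3.84e-08). The median of all 480 tested miRNAs was 0.32 in this contrast. Without the 9 libraries the 4 values lay between 2.32 and 3.79.

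In bone marrow 4 of the 5 were higher, where 16.5% of tested miRNAs were. hsa-miR-424-5p led with a log2 fold change of 3.49 ± 0.31 (edgeR adjusted p = 2.71e-15), followed by cfa-miR-542 at 2.93 ± 0.32 (adjusted p = 3.63e-12), cfa-miR-450b at 2.56 ± 0.38 (adjusted p = 3.8e-08) and cfa-miR-450a at 1.57 ± 0.39 (adjusted p = 0.00064). The median of all tested miRNAs was -0.97 in this contrast. That median moves with the scaling, and the part of the low depth of the bone marrow libraries in it was not tested. The 4 miRNAs stood in the reverse of their order in testis.

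**Figure D2:**
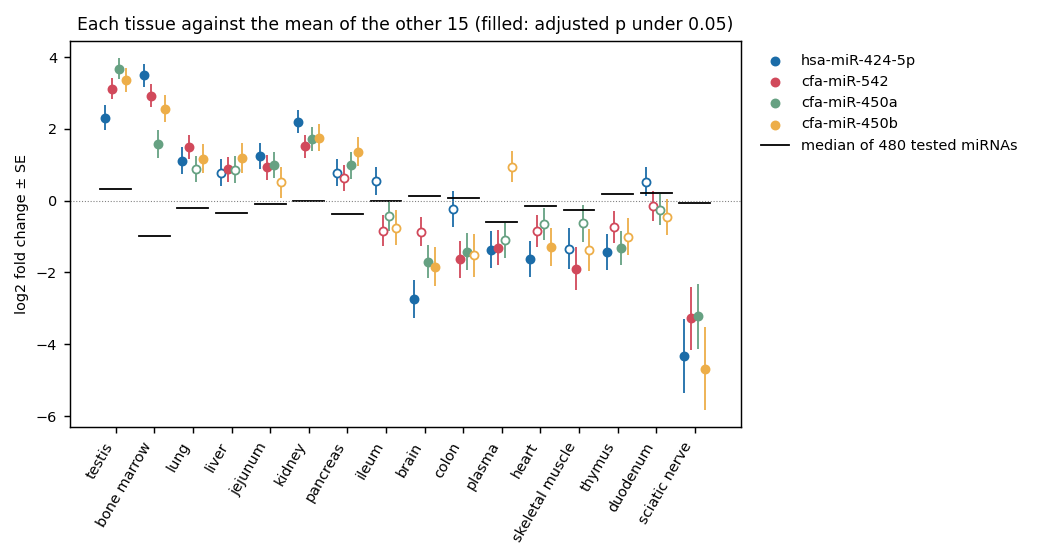
Log2 fold change with its SE (y axis) of 4 of the miRNAs in each tissue against the mean of the other 15 by edgeR, with filled points at an adjusted p under 0.05 and black lines at the median of the 480 tested miRNAs. Testis and bone marrow have different miRNAs on top, and the 4 values in sciatic nerve lie between -3.22 and -4.68. For cfa-miR-450a the value is 1.71 in kidney and 1.57 in bone marrow, but 1.72 and 2.55 above the median of the tested miRNAs. Its mean level is 41.3 RPM in kidney and 76.6 RPM in bone marrow.

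In kidney all 5 were called higher by edgeR, where 24.2% of tested miRNAs were, and 4 without the 9 libraries, as cfa-miR-503 was lost (adjusted p = 0.0665). On the RPM scale the kidney means were 0.72 to 1.21 times those of all remaining samples, so the call is against the average tissue only. The log2 fold change was 2.21 ± 0.33 for hsa-miR-424-5p (edgeR adjusted p = 7.05e-08), 1.76 ± 0.38 for cfa-miR-450b (adjusted p = 0.000131), 1.71 ± 0.34 for cfa-miR-450a (adjusted p = 2.26e-05) and 1.51 ± 0.32 for cfa-miR-542 (adjusted p = 0.000105). The 5 kidney samples were uneven, with summed levels of 373, 453, 121, 163 and 86.0 RPM in replicates 1 to 5. The first 2 stood above the other 3 for cfa-miR-450b in particular, at 167 and 199 RPM against 21.4 to 51.3 RPM. Markers of 3 cell types were also higher there, with endothelial miR-126 at 10547 and 12688 RPM against 4608 to 6254 RPM, the 5 epithelial markers summing to 1282 and 1188 RPM against 238 to 380 RPM, and the 4 stromal and smooth muscle markers to 32566 and 51764 RPM against 17546 to 22141 RPM. Blood cell markers were not higher there, summing to 8105 and 4601 RPM against 6130 to 13779 RPM. For miR-194 the values were 1238 and 2075 RPM against 1286 to 2069 RPM. The part of these markers in the difference was not tested.

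By edgeR, higher values were also called for 4 of 5 miRNAs in jejunum (27.3% of tested miRNAs), 3 in lung (20.6%) and 2 each in liver (23.3%) and pancreas (21.2%). The jejunum calls included cfa-miR-503, on at most 7 reads a library, but not cfa-miR-450b (edgeR adjusted p = 0.421). In jejunum, hsa-miR-424-5p had a log2 fold change of 1.25 ± 0.37 (edgeR adjusted p = 0.00443), and in lung cfa-miR-542 had 1.49 ± 0.33 (adjusted p = 0.000189). In pancreas, cfa-miR-450b had 1.36 ± 0.40 (adjusted p = 0.00421). The RPM means behind these 3 values were 0.95, 1.47 and 0.89 times those of all remaining samples. In lung cfa-miR-450a was called as well without the 9 libraries (0.74 ± 0.28, adjusted p = 0.0337).

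Sciatic nerve had the lowest summed level, and brain stood in place 9 of 16. In sciatic nerve 4 of the 5 miRNAs were lower, where 14.4% of tested miRNAs were, and none had more than 4 reads in either library, so the fitted sizes rest on very few reads. In brain 3 of the 5 were lower, where 28.1% of tested miRNAs were. There hsa-miR-424-5p had a log2 fold change of -2.74 ± 0.53 (edgeR adjusted p = 4.55e-06), with 18.97 RPM in its highest brain sample. The values were -1.69 ± 0.46 for cfa-miR-450a and -1.84 ± 0.54 for cfa-miR-450b (adjusted p = 0.000849 and 0.00196), while cfa-miR-542 at -0.86 ± 0.41 missed the threshold (adjusted p = 0.0521) and passed it without the 9 libraries (-0.69 ± 0.29, adjusted p = 0.0303). No member passed the rank-sum test in brain (adjusted exact p of 0.133 or more). The same held in kidney, jejunum, lung, liver, pancreas, sciatic nerve and thymus, so the calls there rest on edgeR alone. The lowest adjusted exact p among them was 0.0652, for cfa-miR-542 in lung.

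The libraries of duodenum and of thymus were uneven. The cluster summed to 257 and 223 RPM in duodenum replicates 1 and 2, and to 5.77, 3.11 and 18.9 RPM in replicates 3, 4 and 5. miR-143, a smooth muscle marker, was at 132689 and 84748 RPM in the first 2 and at 604122, 408300 and 209375 RPM in the other 3. For miR-194 the values were 23071 and 43838 RPM in replicates 1 and 2 and 691 and 307 RPM in replicates 3 and 4. Replicate 5 lay between them at 4054 RPM. Ileum replicate 4, at 3909 RPM, was kept. No member was called in duodenum with all 5 libraries (none at an unadjusted p under 0.05 by edgeR), where 24.8% of tested miRNAs were called in either direction. With replicates 1 and 2 alone the log2 fold change of hsa-miR-424-5p was 1.68 ± 0.35. The libraries left out there held the lowest cluster levels and were picked by a marker added after seeing the data. That fit therefore cannot decide whether the miRNA is high in duodenum. In thymus the sums were 109 and 100 RPM in replicates 1 and 4, where the leukocyte marker miR-142 was at 14022 and 8991 RPM, and 0, 10.3 and 27.6 RPM in replicates 2, 3 and 5, where miR-142 was at 234 to 335 RPM. Of the 5, 2 were lower in thymus with all libraries, where 5.21% of tested miRNAs were, with -1.42 ± 0.51 for hsa-miR-424-5p and -1.31 ± 0.49 for cfa-miR-450a (edgeR adjusted p = 0.0285 and 0.0353), and without replicates 2, 3 and 5 neither was (adjusted p = 0.288 and 0.345).

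Testis and bone marrow were then compared directly. cfa-miR-450a was higher in testis with a log2 fold change of 1.97 ± 0.57 (edgeR adjusted p = 0.00269), and 37.5% of tested miRNAs were. The other 4 did not pass the threshold, with 0.76 ± 0.62 for cfa-miR-450b (adjusted p = 0.321), 0.18 ± 0.51 for cfa-miR-542 (adjusted p = 0.803) and -1.11 ± 0.56 for hsa-miR-424-5p (adjusted p = 0.0921). The value of hsa-miR-424-5p passed it under 3 alternatives, at -1.34 with only the 2 tissues fitted (adjusted p = 0.00326), -1.57 without a filter on low counts (adjusted p = 0.028) and -1.66 with another reference library for TMM (adjusted p = 0.0165). The median of all tested miRNAs was 1.21 in this contrast, and it moves with the scaling.

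The make-up of the cluster does not depend on the scaling, since the 5 miRNAs are set against their own sum within a library. It was computed for the 57 samples of 15 tissues with at least 50 reads on the cluster. The shares of all 5 differed between tissues in a permutation test of the Kruskal-Wallis statistic, with p = 1e-05 for hsa-miR-424-5p and cfa-miR-542, the smallest value that 100000 permutations can give, 2e-05 for cfa-miR-450a, 8e-05 for cfa-miR-450b and 0.0124 for cfa-miR-503 (adjusted p of 2.5e-05, 2.5e-05, 3.33e-05, 0.0001 and 0.0124).

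hsa-miR-424-5p made up 40.0 ± 1.91% of the cluster in bone marrow and 14.7 ± 2.23% in testis (SD, n = 5 each). Its share was 39.3, 43.2, 38.4, 40.2 and 38.8% in bone marrow replicates 1 to 5, and 11.8, 15.2, 17.9, 14.4 and 14.0% in testis. cfa-miR-450a took 8.15 ± 1.68% in bone marrow and 25.5 ± 1.54% in testis, and cfa-miR-450b 34.5 ± 3.85% and 44.1 ± 3.92%. In each of these 3 the samples of the 2 tissues did not overlap (exact permutation test, two-sided p = 0.00794, the smallest possible here, adjusted p = 0.0231 over 16 tests of this kind). The share of cfa-miR-542 was 17.1 ± 2.57% and 15.1 ± 3.17% (exact p = 0.31). These pair tests were added after the shares had been seen.

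Testis replicates 2 and 3, low in testis markers, had cfa-miR-450a shares of 27.8 and 24.3% against 24.4 to 26.4% in the other 3. Replicate 3 lay apart for hsa-miR-424-5p, at 17.9% against 11.8 to 14.4%, and for cfa-miR-450b, at 38.7% against 43.1 to 48.4%, close to the highest bone marrow share of 38.4%. Without them the difference in hsa-miR-424-5p between testis and bone marrow was -26.6 percentage points, against -25.3 with all 5 (exact permutation p = 0.0357 with n = 3 and 5, adjusted p = 0.0476).

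**Figure D3:**
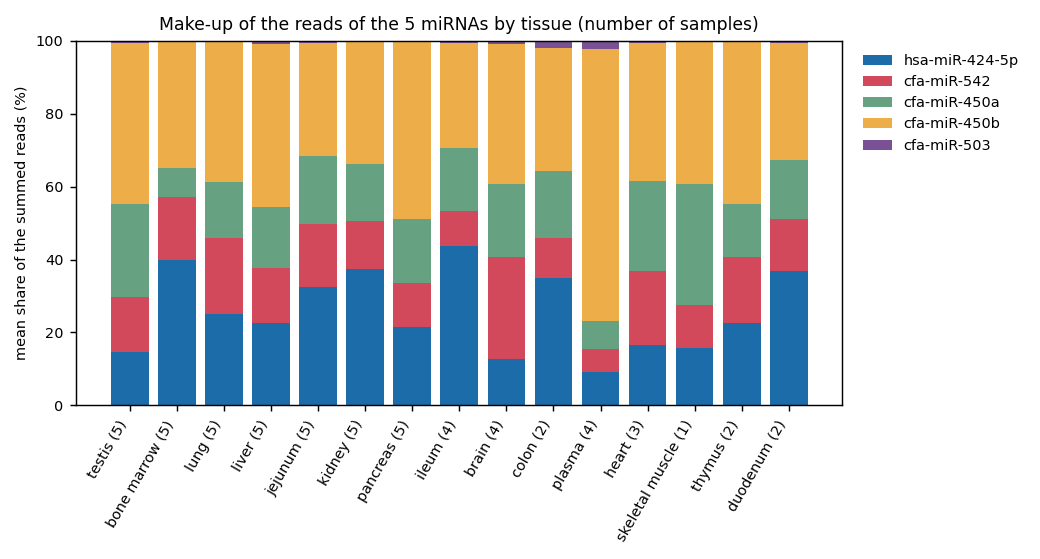
Mean share (y axis, percent) of each of the 5 miRNAs in their summed reads, by tissue, with the number of samples with at least 50 such reads in brackets. hsa-miR-424-5p makes up 40.0% in bone marrow and 14.7% in testis, and cfa-miR-450b makes up 74.6% in plasma.

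Across the other tissues, the mean share of hsa-miR-424-5p was 32.4 to 43.6% in kidney and the 4 intestinal tissues, 21.6 to 25.1% in lung, liver, pancreas and thymus, and 12.7 to 16.6% in brain, heart and skeletal muscle. Single samples crossed these ranges, since kidney ran from 21.9 to 55.9% and lung from 13.2 to 43.8%. Skeletal muscle gave 1 sample, and thymus, colon and duodenum 2 each. cfa-miR-542 had its largest share in brain, at 28.1 ± 4.39% (n = 4), and cfa-miR-450b ranged from 29.0% in ileum to 48.6 ± 2.31% in pancreas among the solid tissues.

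Plasma is the cell-free part of blood. Against the mean of the other 15 tissues, hsa-miR-424-5p (-1.36 ± 0.51, edgeR adjusted p = 0.019) and cfa-miR-542 (-1.31 ± 0.49, adjusted p = 0.018) were lower there, where 24.8% of tested miRNAs were. cfa-miR-503 was higher (1.81 ± 0.57, adjusted p = 0.00533), where 27.9% were, on at most 3 reads a library. cfa-miR-450b missed the threshold (0.95 ± 0.43, adjusted p = 0.0559) and passed it without the 9 libraries (adjusted p = 0.0294). cfa-miR-450b was at 18.2, 94.0, 34.6, 67.1 and 38.0 RPM in plasma replicates 1 to 5, and hsa-miR-424-5p at 0, 21.5, 3.60, 8.30 and 2.07 RPM. Against bone marrow, 4 of the 5 miRNAs were lower, where 16.7% of tested miRNAs were. The log2 fold changes were -4.55 ± 0.66 for hsa-miR-424-5p (edgeR adjusted p = 3.39e-08), -3.97 ± 0.61 for cfa-miR-542 (adjusted p = 1.29e-07), -2.51 ± 0.63 for cfa-miR-450a (adjusted p = 0.000677) and -1.51 ± 0.64 for cfa-miR-450b (adjusted p = 0.0487). The last call was lost when any 1 plasma or bone marrow library was left out (adjusted p = 0.0535 to 0.101). Blood cell markers summed to 582763 to 828906 RPM in plasma and 102496 to 168634 RPM in bone marrow, and their part in the difference was not tested.

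cfa-miR-450b made up 64.1, 73.8, 80.8 and 79.7% of the cluster in plasma replicates 2 to 5, and replicate 1 had only 6 reads. The mean of 74.6 ± 7.64% (n = 4) was above the 34.5 ± 3.85% of bone marrow, and the mean shares of hsa-miR-424-5p (9.18 ± 4.34% against 40.0%) and cfa-miR-542 (6.36 ± 1.96% against 17.1%) were below (exact permutation p = 0.0159 each, the smallest that 4 and 5 samples allow, adjusted p = 0.0231). The share of cfa-miR-450a was 7.52 ± 3.89% against 8.15% (exact permutation p = 0.746, n = 4 and 5), and that of cfa-miR-503, on at most 3 reads a library, was 2.34 ± 1.42% against 0.32 ± 0.30% (exact permutation p = 0.0159, adjusted p = 0.0231).

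**Figure D4:**
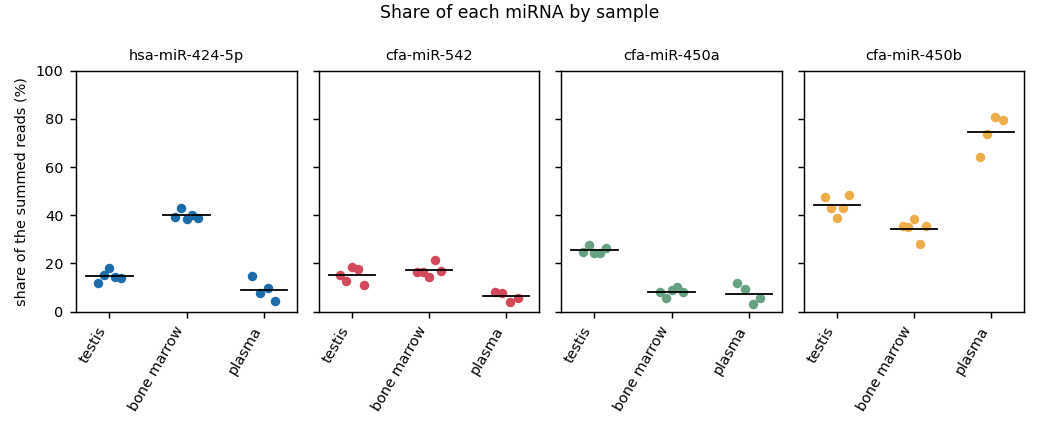
Share of each miRNA in the summed reads of the 5 (y axis, percent) in each testis, bone marrow and plasma sample with at least 50 such reads, with the mean as a line. hsa-miR-424-5p is near 40% in all 5 bone marrow samples, cfa-miR-450a near 25% in all 5 testis samples, and cfa-miR-450b lies between 64.1 and 80.8% in plasma.

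The arms of the hairpins also differed in balance between some of the tissues compared. The 3p arm of miR-424 made up 65.9 ± 26.3% of the reads of both arms in plasma and 4.65 ± 2.85% in bone marrow (n = 5 each, exact permutation p = 0.00794, adjusted p = 0.0231), from 60 of 119 and 18 of 367 reads. The level of this arm was 8.85 ± 3.56 RPM in plasma and 19.7 ± 14.8 RPM in bone marrow, where the 5p arm was at 7.10 ± 8.62 and 361 ± 108 RPM. In testis the 3p share of miR-424 was 13.3 ± 5.22% (exact permutation p = 0.0159 against bone marrow, n = 5 each, adjusted p = 0.0231), from 46 of 473 reads. The 5p arm of miR-542 made up 23.9 ± 10.2% of both arms in testis and 5.36 ± 2.96% in bone marrow (n = 5 each, exact permutation p = 0.00794, adjusted p = 0.0231), from 125 of 570 and 8 of 161 reads. The bone marrow shares of this arm rest on 1 to 3 reads a library. The same arm made up 59.7 ± 29.5% in skeletal muscle and 19.8 ± 12.8% in heart (n = 4 and 5, exact permutation p = 0.0317, adjusted p = 0.0423), from only 12 of 25 and 31 of 128 reads. The 3p share of miR-424 did not differ there, at 39.5 ± 38.7% in skeletal muscle and 26.3 ± 17.5% in heart (n = 5 each, exact permutation p = 0.595, adjusted p = 0.635). Arm shares had no minimum of reads, so every library with a read on either arm has the same weight. Plasma replicate 1 entered at 100% on 2 reads of miR-424, and skeletal muscle replicate 5 at 100% on 1 read of miR-542. By edgeR, both other products of the locus were higher in testis, with log2 fold changes of 2.58 ± 0.38 for cfa-miR-424 (adjusted p = 3.9e-08) and 3.68 ± 0.33 for hsa-miR-542-5p (adjusted p = 1.79e-15), and cfa-miR-424 was higher in bone marrow at 2.26 ± 0.47 (adjusted p = 4.13e-05). Both were also higher in kidney (1.36 ± 0.35 and 1.72 ± 0.35), hsa-miR-542-5p in lung (1.47 ± 0.37) and cfa-miR-424 in plasma (2.37 ± 0.37), at adjusted p of 0.00114 or less. Of all tested miRNAs, 34% were higher in testis, 16.5% in bone marrow, 24.2% in kidney, 20.6% in lung and 27.9% in plasma. Both products were lower in colon and in ileum, where 31 and 42 of 480 tested miRNAs were. In sciatic nerve and in thymus 1 of the 2 was lower, where 14.4% and 5.21% were.

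Heart and skeletal muscle, both striated muscle, were compared because miR-424 and miR-503 are known from muscle differentiation. The cluster summed to 48.2, 47.6, 39.2, 11.4 and 53.8 RPM in heart replicates 1 to 5 and to 33.7, 63.3, 29.9, 0 and 9.50 RPM in skeletal muscle. None of the 5 miRNAs passed the threshold of edgeR's test (none at an unadjusted p under 0.05, and none by DESeq2), where 12.7% of tested miRNAs did. Skeletal muscle replicate 4 had no read of any member in 220445 reads and only 1 read of the muscle marker miR-206, and the count of calls was also 0 without it.

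The 4 abundant members moved together across tissues. Spearman's rho of the 16 tissue medians was between 0.80 and 0.93 for pairs of hsa-miR-424-5p, cfa-miR-542, cfa-miR-450a and cfa-miR-450b, the highest for the neighbouring cfa-miR-450a and cfa-miR-450b. These are correlations over 16 tissues that share libraries and depth, given as a description.

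Among 427 miRNAs with a tissue median over 10 RPM in at least 1 tissue, the 5 with tissue medians most like those of the summed cluster were cfa-miR-660 (Spearman's rho 0.89 over 16 tissues), cfa-miR-374a (0.76), hsa-miR-532-3p (0.75), cfa-miR-362 (0.73) and cfa-miR-590 (0.72). cfa-miR-660 had its highest median in testis, at 759 RPM, and stood at 538 RPM in bone marrow. The genes of miR-660, miR-532 and miR-362 lie within 5 consecutive miRNA genes of the X chromosome in the RefSeq table, apart from the miR-424 locus, and that of miR-374a is on the same chromosome. In a count made after the values were seen, of the 10 miRNAs most alike 7 were on the X chromosome, against 14.6% of the 349 compared miRNAs with 1 chromosome in that table, but 1 of the 7, hsa-miR-542-5p, is the other arm of a member, and 5 (miR-660, miR-532, miR-362, miR-188 and miR-502) come from 1 run of neighbouring genes, so they are not 7 separate loci.

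Among the other miRNAs of the locus, its surroundings and the seed family, rho with the summed cluster was 0.69 for hsa-miR-542-5p (rank 7 of 427) and 0.61 for cfa-miR-424 (rank 18). Spearman's rho with the summed cluster was -0.15 for cfa-miR-363 and cfa-miR-106a, -0.01 for cfa-miR-20b and 0.46 for cfa-miR-18b, which come from the group of hairpins on the other side of HPRT1. All 4 were higher in testis by edgeR, with log2 fold changes of 2.20 to 4.28, where 34% of tested miRNAs were. None of them passed the rank-sum test in testis (adjusted exact p of 0.0791 or more). Testis replicate 3 held 17.3 RPM of cfa-miR-363 and less of the others. Of the 4, only cfa-miR-18b was higher in bone marrow, at 1.74 ± 0.56 (edgeR adjusted p = 0.00787), where 16.5% were. In ileum all 4 were also higher (91 of 480 tested miRNAs were), and in thymus 3 (102 of 480). In brain all 4 were lower, where 28.1% were. In the seed family, rho was 0.59 for cfa-miR-15a, 0.48 for cfa-miR-16, 0.46 for cfa-miR-15b, 0.39 for cfa-miR-195 and 0.25 for cfa-miR-497.

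The seed family spanned a wide range of levels around hsa-miR-424-5p. cfa-miR-16 was at 17730 ± 3562 RPM in bone marrow and 35684 ± 10269 RPM in plasma (n = 5 each), where hsa-miR-424-5p was at 361 ± 108 and 7.10 ± 8.62 RPM. cfa-miR-15b was at 381 ± 96.6 RPM and cfa-miR-497 at 141 ± 33.0 RPM in bone marrow, and cfa-miR-195 at 11.1 ± 7.41 RPM in plasma. Of the 5 family members, cfa-miR-16 and cfa-miR-195 were higher in bone marrow against the other 15 tissues and cfa-miR-497 was lower, where 16.5% of all tested miRNAs were higher and 24.6% lower. In testis 2 (cfa-miR-15b and cfa-miR-497) were higher, a share near the 34% of all tested miRNAs. Against bone marrow, cfa-miR-15a, cfa-miR-15b and cfa-miR-16 were higher in plasma (26.5% of all tested miRNAs were), with log2 fold changes of 3.64, 1.34 and 2.18, and cfa-miR-195 was lower at -5.93.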

How the data were processed

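Per the study's methods, the authors clipped adaptors, aligned reads to CanFam3.1 with OSA without mismatches, discarded any read placed at over 10 locations and counted those with an overlap of at least 70% with a miRNA locus. The deposited count is whole reads per mature miRNA, and the deposited RPM column (a score stacked over samples) is that count scaled to a common total of reads on miRNAs. 1 sample name in the table could not be tied to a label and 1 labelled colon sample had no values, and neither was used.

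Members and lists were chosen with earlier results of these data known. TE tests ran over 650 miRNAs. Counts were tested with edgeR 4.0.16 (R 4.3.3) on the 480 miRNAs that passed its filter, and DESeq2 1.42.0 was an alternative. TMM took colon replicate 3 as its reference library, which, decided after seeing the fits, was held when 1 library at a time was left out. Shares of the members used samples with at least 50 reads on the cluster. Arm shares used every sample with a read on either arm. Named miRNAs were the members, other products of the locus, the seed family, the neighbouring cluster and the 5 most alike. Markers were chosen by name, except miR-194 for duodenum, added afterwards. Scripts were tested on simulated data. Values after ± are SDs between samples for levels and shares, and SEs derived from edgeR's test for log2 fold changes. The tests took samples, not reads, as their units.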

Additional observations from a re-analysis of the deposited data

Results flagged for a closer look

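In 4 of 74 groups of 4 or 5 samples 1 sample stood far from the others, where chance gives about 1 in 20 groups. For cfa-miR-450a in plasma, replicate 2 was at 17.6 RPM and the next sample at 4.32 RPM. Plasma replicate 2 was also the highest plasma sample for cfa-miR-450b. The other 3 concern cfa-miR-503 and rest on at most 7 reads each: duodenum replicate 2 at 2.17 RPM with the others at 0, liver replicate 4 at 4.01 RPM with the next at 0.773 RPM, and skeletal muscle replicate 5 at 3.17 RPM with the next at 0.702 RPM.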

How the results depend on the processing

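The count of TE pairs was 6, between 4 and 7 under other scalings, filters, ratios and adjustments, between 4 and 6 with 1 library left out, and 0 where the tissue median had to exceed 5 times the highest sample of all other tissues. The count of pairs called by edgeR across tissues was 42, between 33 and 51 under the alternatives and between 37 and 48 with 1 library left out. In testis against bone marrow 1 miRNA was called, and 2 without a filter on low counts, with only the 2 tissues fitted, and with thymus replicate 4 as the reference library of TMM, while leaving out 1 library gave 1 throughout. cfa-miR-542 turned to -0.28, -0.055 and -0.38 in that contrast under the same 3 settings.

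The reference library matters for bone marrow and was looked at after seeing the data. With 1 library left out, edgeR by itself would have taken another reference in 51 of 76 cases. Over all 76 possible references the log2 scaling of testis relative to bone marrow ran from -0.57 to 0.53 (median -0.07, here -0.09) and that of plasma from -1.65 to -0.33 (median -1.13, here -1.18). Log2 fold changes against bone marrow carry that uncertainty, and shares do not.

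Plasma against bone marrow gave 4 calls, 3 with only the 2 tissues fitted (where cfa-miR-450a was not tested), 4 under the other alternatives and 3 with 1 library left out. Heart against skeletal muscle gave 0 calls under every setting run, with 0 for every library left out, and the signs of its changes moved with the scaling. The shares of all 5 miRNAs passed, 4 with a minimum of 1 or 200 reads and 5 with each library left out. No paired analysis was possible because the labels carry no dog number, although all tissues came from 5 dogs.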
